A study of Caenorhabditis elegans with 6 samples.

Results

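lea-1 (K08H10.1, WBGene00002263) encodes a late embryogenesis abundant protein of C. elegans, and its transcripts are described here in pals-25(icb98) mutants and in WT. The 20 transcripts whose names begin with K08H10.1 and an isoform letter were taken, out of 35862 transcripts in the files, which belong to 22010 genes. The gene was selected on measured values of this same contrast, namely the estimated counts of its transcripts, their shares of the gene total and the total itself. Those values are therefore given as a description, with no test.

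Late embryogenesis abundant proteins were first described in maturing plant seeds and are found in several animals that survive drying. They are highly hydrophilic, are largely unfolded in solution, and fold or form a protective matrix as water is lost. In C. elegans, lea-1 is known from survival of desiccation, osmotic stress and heat, and the dauer larva is the stage best known for surviving drying. The gene is known for many isoforms, which carry different stretches of the repeated LEA sequence.

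RNA came from whole animals at the L4 larval stage, grown at 20 °C on E. coli OP50, with 3 pals-25(icb98) libraries and 3 WT libraries. Both strains carry icbIs4, a transgene with GFP under the chil-27 promoter and mCherry under the col-12 promoter. The pals-25(icb98) allele came from a chemical mutagenesis screen for constitutive chil-27 reporter signal and introduces a premature stop near the end of PALS-25. It is a single isolate, and its methods describe a mapping cross to the polymorphic isolate CB4856. Differences in genetic background between the strains other than icb98 therefore cannot be told apart from the allele. The labels call the replicates biological but do not say whether they were separate cultures, so the p-values below measure the spread between these libraries.

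Library totals were 43614668, 44094964 and 44425046 estimated counts in pals-25(icb98), and 47297002, 41017280 and 40709626 in WT. Estimated counts are the reads that the pseudoaligner divided among transcripts, and CPM below is estimated counts relative to the library total after TMM scaling. WT replicate 2 stood apart: 2764 and 2492 genes differed by over 2-fold between it and the other WT libraries, against 155 to 189 genes between pals-25(icb98) libraries and 159 genes between WT replicates 1 and 3. The strain labels were checked with chil-27, the chitinase-like gene behind the reporter, which measured 36.2, 40.21 and 33.5 CPM in pals-25(icb98), against 0.126, 0.0484 and 0.221 CPM in WT (log2 difference 8.09, SE 0.32, edgeR adjusted p = 7.87e-05). pals-5, another pathogen response gene, measured 20.9 to 24.3 CPM in pals-25(icb98), against 0.0984 to 0.194 CPM in WT (log2 difference 7.41, SE 0.23, edgeR adjusted p = 2.67e-05). pals-25 itself and its operon partner pals-22 each showed a log2 difference of 0.98 (SE 0.17 and 0.16, edgeR adjusted p = 0.0145 and 0.0121), which does not check the label because the allele is a premature stop. The call of pals-22 was lost without any 1 of the pals-25(icb98) libraries, and that of pals-25 without any of those or WT replicate 3 (edgeR adjusted p up to 0.0598 and 0.0719). Across all features, edgeR's quasi-likelihood test called 1584 of 16166 genes higher (9.8%) and 1729 lower (10.7%), and 1505 of 24607 transcripts (6.12%) in either direction.

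In the WBcel235 annotation (Ensembl release 115), lea-1 lies on the forward strand of chromosome V from 10011923 to 10028168 and spans 16246 bases. This release lists 17 lea-1 transcripts and is a later gene model than the one counted. Of the 16 isoform letters in the files, 12 occur in it, while e, m, n and o do not. The letter p stands for different sequences, with 2661 bases in the files and 4455 in the annotation. No coordinates are therefore given for e, m, n, o and p.

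The annotated transcripts differ at both ends. Among start sites, g, i and k begin at 10011923, h, j and l at 10013274, and a at 10020545, which is 8622 bases downstream of the first. The forms b and f begin with a at the same first exon, and c and d begin inside a later exon at 10023661. At the other end, a and g stop in an exon that runs from 10022677 to 10023236 (560 bases) and h at 10023093 in the same exon (417 bases), and in all 3 the coding sequence ends at 10023090. These are the short transcripts, with predicted proteins of 733, 821 and 805 residues for a, g and h. The remaining annotated forms hold an exon of 1341 bases (10023559 to 10024899), c and d only in part, and run on to a last exon in which the coding sequence ends at 10027717. Of the long forms that start upstream of it, b has the smallest predicted protein (1126 residues) and k the largest (1397 residues).

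The larger long forms f, k and l also hold 372 bases of the exon that ends the short forms, from 10022677 to 10023048, and an exon of 177 bases from 10025535 to 10025711. What the terminal exon of a and g holds beyond these larger forms is 188 bases, from 10023049 to 10023236. Reads within shared exons do not separate the forms, so the division among them rests on such stretches and on exon junctions.

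**Figure D1:**
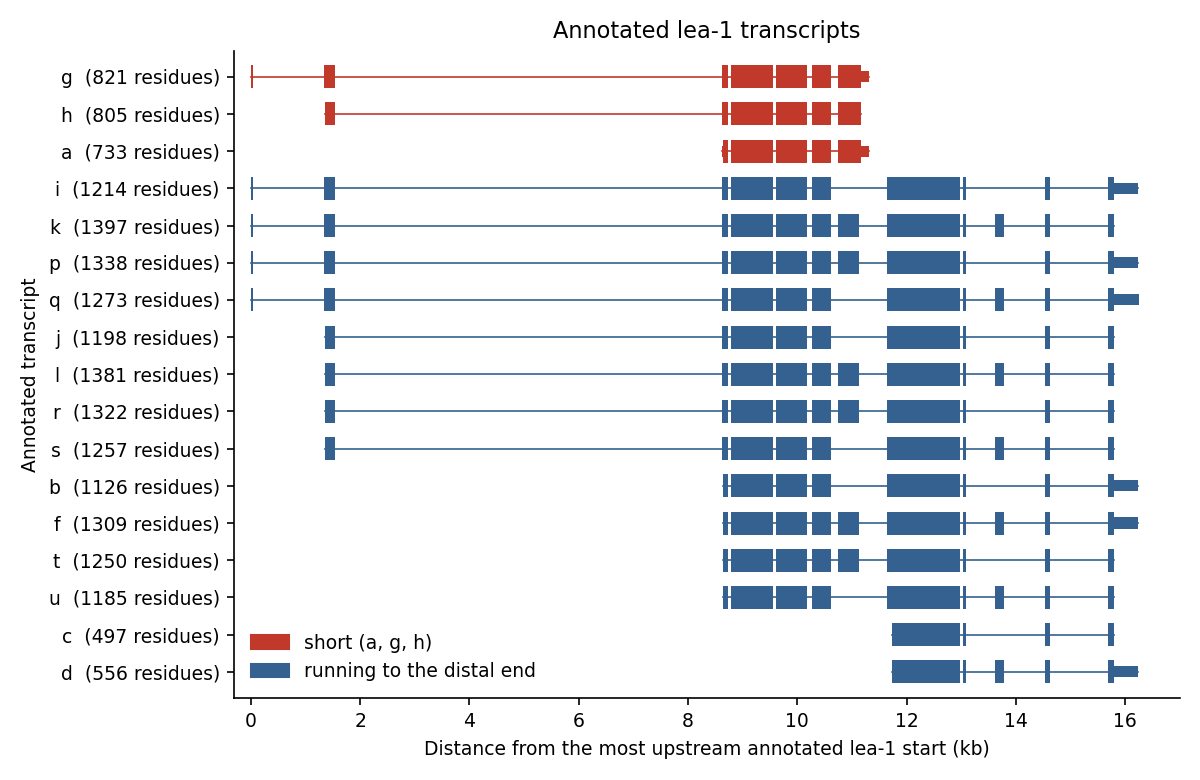
Exons of the 17 annotated lea-1 transcripts (rows, with predicted protein length) against distance in kb from the most upstream start. Tall boxes are coding and low boxes noncoding exon parts. The 3 short transcripts are red, at the top, of which a and g end 4932 bases before the most distal end, and c and d start inside the exon that follows.

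The lengths in the files order 15 of the 20 transcripts into 5 sets of 3, each with a short, a smaller long and a larger long form. In every set the smaller long form is 1471 bases longer than the short one and the larger long form 552 bases longer again, close to the 549 coding bases that separate k and i in the annotation. The sets are g, i and k; h, j and l; m, n and o; a.1, b.1 and f.1; and a.2, b.2 and f.2. Short transcripts below are therefore a.1, a.2, g, h and m, although for m the class rests on its length alone, as it does for n and o among the long ones. The listed length of a.2, 2363 bases, equals that of the annotated a.

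The total over all 20 transcripts was slightly higher in pals-25(icb98). It measured 372.6, 333.6 and 301.9 CPM in pals-25(icb98), against 279.8, 298.4 and 284.1 CPM in WT, with means of 336 ± 35.4 and 287 ± 9.75 CPM (SD, n = 3 each). The groups did not overlap, but pals-25(icb98) replicate 3 lay just above WT replicate 2. The log2 difference was 0.23 (SE 0.08), beside a median of 0.0053 over all genes tested, and 0.14 without pals-25(icb98) replicate 1. At a mean of 311.7 CPM over the 6 libraries, lea-1 was above 97.5% of all 22010 genes, those too low to test included. Fewer cells of a type and less RNA per cell cannot be told apart in whole animals, here or below.

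The excess sat in the short transcripts. Their estimated counts were 3649.9, 2006.9 and 1074.5 in the pals-25(icb98) libraries, and 0.001, 0.003 and 0.008 in the WT libraries. With a floor of 3 counts over the WT group, this was at least 2203-fold higher in pals-25(icb98). In CPM the short transcripts summed to 85.1, 45.0 and 24.3 in pals-25(icb98), while every WT library rounded to 0.0 CPM. As the reads were divided, every pals-25(icb98) library thus held them and no WT library did at this depth. Reads over the stretches and junctions particular to the short forms were not examined, so absence from WT was not shown directly. The fold covers counting error alone, not error in that division. Leaving the short transcripts out, lea-1 measured 287.5, 288.7 and 277.6 CPM in pals-25(icb98) (285 ± 6.07, SD, n = 3), against 279.8, 298.4 and 284.1 CPM in WT (287 ± 9.75, SD, n = 3). These ranges overlapped, with a log2 ratio of means of -0.01.

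**Figure D2:**
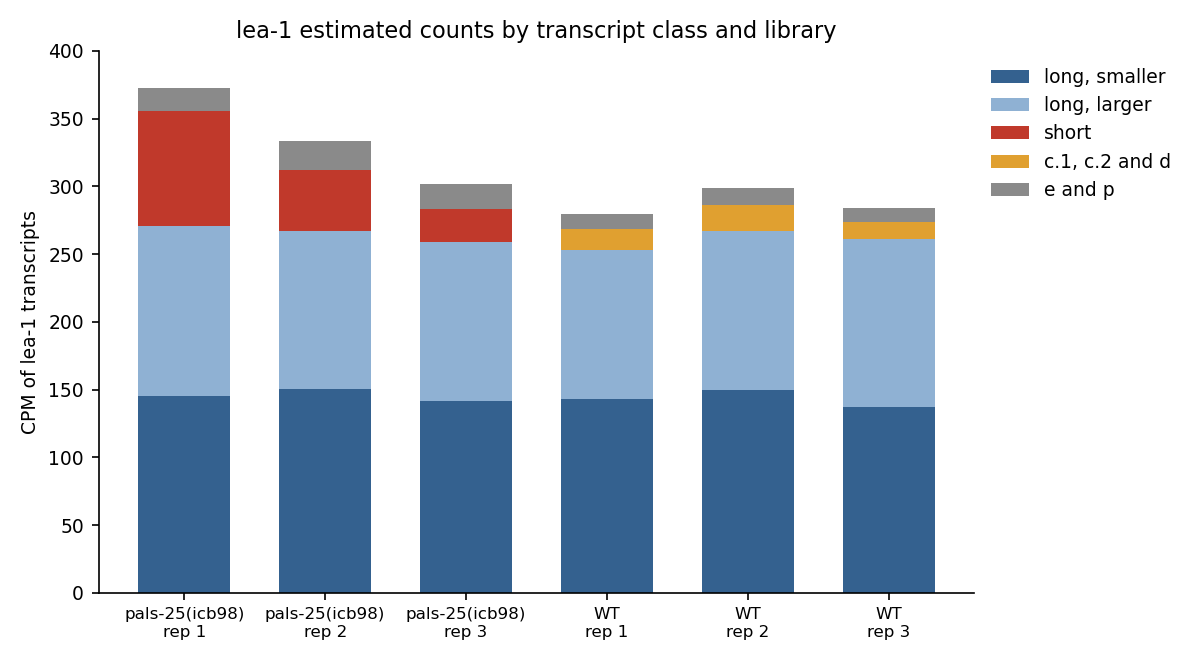
Summed CPM of lea-1 transcript classes (stacked colours) in the 3 pals-25(icb98) and 3 WT libraries. The short class (red) reaches 85.1, 45.0 and 24.3 CPM in pals-25(icb98) and is not visible in WT, the class of c.1, c.2 and d (orange) is seen in WT alone, and the long classes (blue) stand at similar heights in all 6.

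Short transcripts made up 22.8%, 13.5% and 8.05% of the lea-1 counts in pals-25(icb98), a mean of 14.8% ± 7.48 (SD, n = 3), against 0.0% in each WT library. Because a long molecule yields more reads than a short one, the same shares in TPM, a scale that divides by effective length, were 31.9%, 19.3% and 11.8% in pals-25(icb98). The pals-25(icb98) libraries differed widely among themselves, with the highest short CPM 3.5 times the lowest. Among 4454 transcripts of like mean level (25.7 to 102.9 CPM in pals-25(icb98)), the median of this ratio was 1.12 and 0.696% had one as large. Among 3919 genes of like level the median was 1.08 and 0.0% had one as large. Counts assigned to short transcripts were therefore common to the 3 libraries, whereas their amount was not well determined.

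Within the short class, a.2, which begins at the downstream start, held the most counts. It had 2622.4, 1531.5 and 604.5 estimated counts in pals-25(icb98), and at most 0.004 in any WT library, at least 1558-fold higher. The transcript g, which begins at the upstream start and carries the longest of the short proteins, had 753.7, 408.0 and 425.6 estimated counts in pals-25(icb98) and at most 0.003 in WT, at least 520-fold higher. Both starts were thus represented among short transcripts. a.2 made up 71.9%, 76.3% and 56.3% of the short counts in the pals-25(icb98) libraries, and g 20.7%, 20.3% and 39.6%. Replicate 3, with the fewest short counts, had the lowest share of a.2 and the highest of g.

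The remaining short forms were minor. m had 212.6, 49.7 and 23.8 estimated counts in pals-25(icb98) and at most 0.0003 in WT, at least 93.6-fold higher. a.1, the other a form, listed at 2633 bases, had 61.2, 17.8 and 20.5 estimated counts in pals-25(icb98) and at most 0.001 in WT, at least 32.6-fold higher. The short form h stayed at or below 3e-05 counts in all 6 libraries, and its long partners j and l had at most 5.7 counts in any library. The set that begins at 10013274 was thus nearly unused in both strains as the reads were divided.

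Transcripts that pass from silent to measurable were rare among multi-transcript genes that were themselves measured in every library. Genes near silent as a whole in WT, such as chil-27 and pals-5, were outside this set. Among 16977 transcripts of multi-transcript genes with at least 100 counts in every library, 16 (0.0942%), in 14 genes, had under 1 count in every WT library and at least 20 in every pals-25(icb98) library. a.2, g and m were 3 of them, ranking 1, 2 and 8 by mean count in pals-25(icb98), and lea-1 was the only one of the 14 genes with more than 1. Since these values chose the gene, this places lea-1 and tests nothing. Without WT replicate 2 the number was 35, the same 3 lea-1 transcripts included. Leaving out any WT library can only keep or raise this number, and only this omission was run. In the opposite direction 13 transcripts (0.0766%) met the rule, 0 of them in lea-1.

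**Figure D3:**
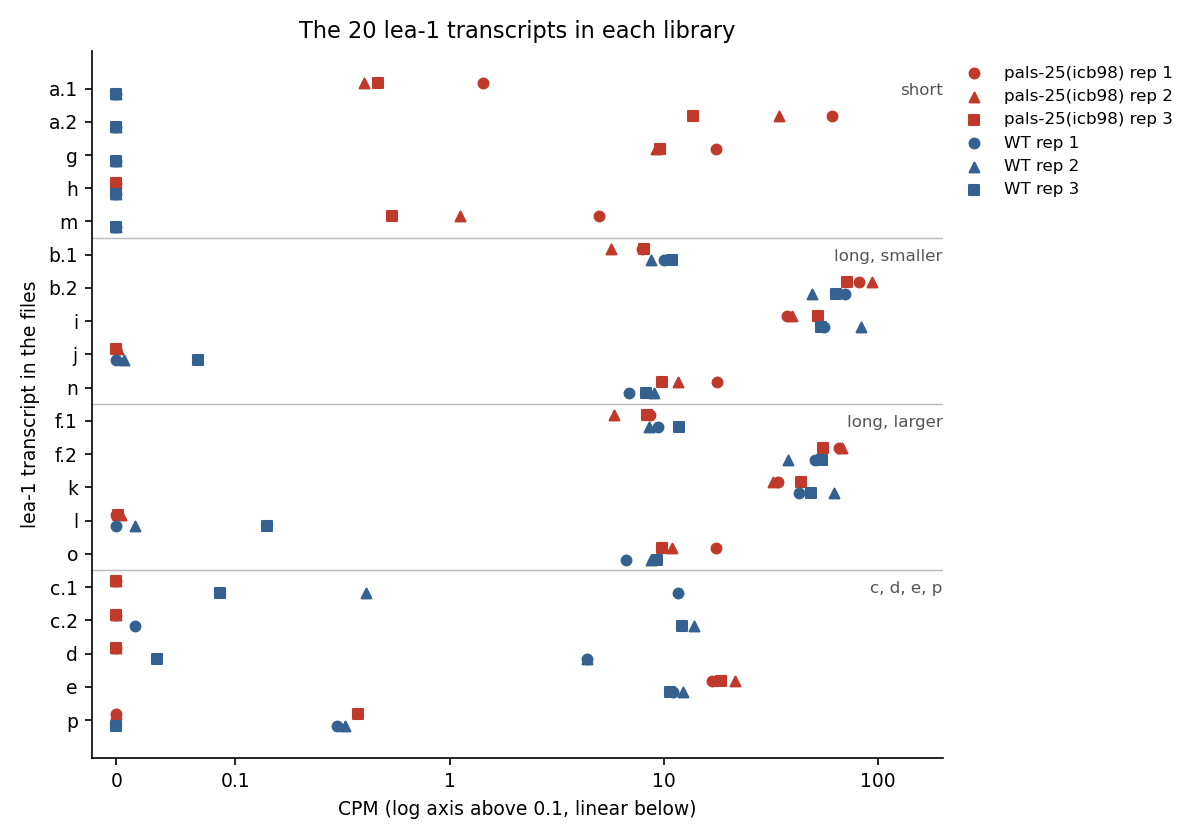
CPM of each of the 20 lea-1 transcripts (rows) in the pals-25(icb98) libraries (red, upper points of a row) and the WT libraries (blue, lower points), on a log axis above 0.1 and a linear one below. In a.1, a.2, g and m the red points stand apart from WT points at 0, and in c.1, c.2 and d the red points are at 0.

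The long transcripts, which encode the larger proteins, carried most of the gene's counts in both strains. The 10 long forms summed to 270.8, 267.2 and 258.7 CPM in pals-25(icb98), against 252.6, 267.3 and 261.1 CPM in WT. The groups overlapped, with means of 266 ± 6.20 and 260 ± 7.40 CPM (SD, n = 3 each). As a share of the lea-1 counts the long forms made up 72.7%, 80.1% and 85.7% in pals-25(icb98), against 90.3%, 89.6% and 91.9% in WT. A higher short share lowers the long share by construction, but the remaining forms c.1, c.2, d, e and p also differed. Together those held 4.49% to 6.44% in pals-25(icb98) and 8.08% to 10.4% in WT.

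Inclusion of the extra coding exons was similar in both strains. The larger long forms made up 46.5%, 43.6% and 45.3% of the long counts in pals-25(icb98), against 43.3%, 44.0% and 47.6% in WT. The WT range enclosed all 3 pals-25(icb98) values. In CPM, the larger forms summed to 125.9, 116.5 and 117.1 in pals-25(icb98) and 109.3, 117.6 and 124.3 in WT, and the smaller forms to 144.9, 150.7 and 141.6 in pals-25(icb98) and 143.3, 149.7 and 136.8 in WT.

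The starts of the long forms differed more than their sum. The forms i and k, from the most upstream start, summed to 71.6, 71.7 and 96.0 CPM in pals-25(icb98), against 98.7, 145.6 and 102.9 CPM in WT. All 3 pals-25(icb98) libraries lay below all WT libraries, although replicate 3 of pals-25(icb98) was close to WT replicate 1, and WT replicate 2 was far above the rest. The forms b.2 and f.2, from the downstream start, summed to 147.5, 161.4 and 126.7 CPM in pals-25(icb98), against 120.9, 86.8 and 117.8 CPM in WT. Here WT replicate 2 was the lowest of the 6, and the groups did not overlap. Without that library neither sum overlapped between the groups.

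The remaining long forms were lower in CPM. n and o, whose start is not annotated, summed to 35.2, 22.5 and 19.6 CPM in pals-25(icb98), against 13.5, 17.7 and 17.6 CPM in WT. b.1 and f.1 summed to 16.5, 11.5 and 16.5 CPM in pals-25(icb98), against 19.5, 17.2 and 22.7 CPM in WT. Neither pair overlapped, n and o being higher and b.1 and f.1 lower in pals-25(icb98).

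**Figure D4:**
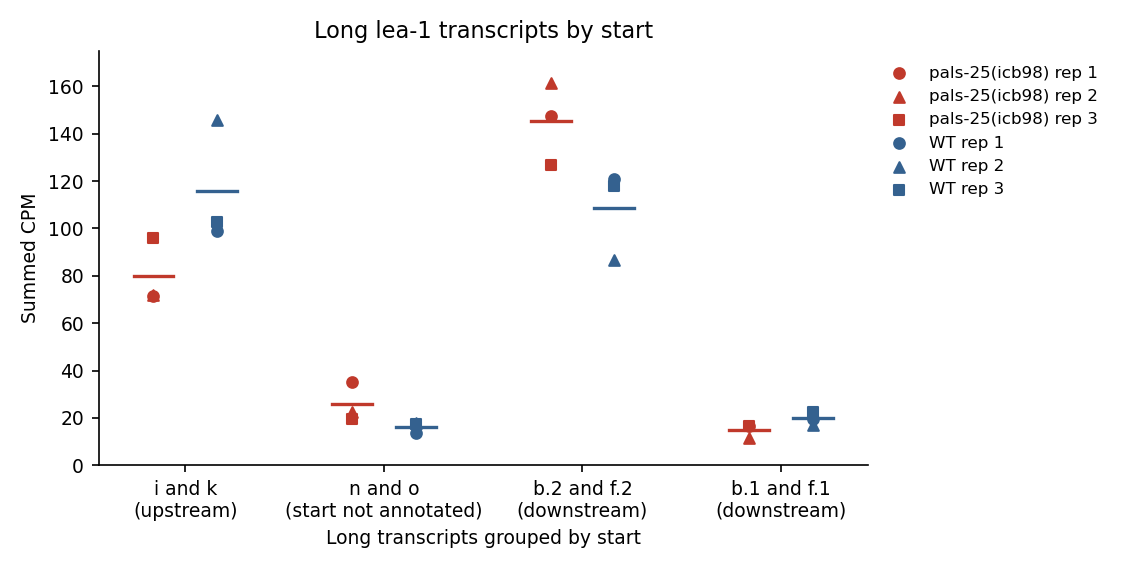
Summed CPM of long lea-1 transcripts grouped by start, per library, with pals-25(icb98) in red on the left and WT in blue on the right of each pair (bars are means). The sum of i and k is 71.6 to 96.0 CPM in pals-25(icb98) and 98.7 to 145.6 CPM in WT, and WT replicate 2 (blue triangle) is the highest for i and k and the lowest for b.2 and f.2.

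The forms c.1, c.2 and d ran the other way. The annotated c and d begin inside the exon that the short transcripts lack and encode the smallest annotated proteins (497 and 556 residues), but the listed c.1 and c.2 have 2981 and 2031 bases against 1494 in the annotated c, and d has 2211 against 2109, so the starts of the counted forms may differ. Together they had at most 0.0005 counts in any pals-25(icb98) library, against 756.8, 766.6 and 500.7 in WT. With the floor of 3 counts over the pals-25(icb98) group they were at least 687-fold lower in pals-25(icb98). They made up 0.0% of the lea-1 counts in each pals-25(icb98) library, and 5.70%, 6.22% and 4.34% in WT.

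Their division among names was unstable within WT. c.1 had 549.5, 16.9 and 3.5 estimated counts in WT replicates 1, 2 and 3, and c.2 had 0.8, 569.2 and 495.8. The sum of both was 550.2, 586.1 and 499.3, so the counts moved between 2 names of one letter. d had 206.6, 180.5 and 1.4 counts in WT. None of the 3 names alone was measurable in every WT library, and the filter on low counts removed each of them from the transcript fit.

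The form e, which is the smallest in length (1468 bases) and is not annotated, was higher in pals-25(icb98). It had 718.3, 959.7 and 819.7 estimated counts in pals-25(icb98), against 522.1, 505.6 and 432.6 in WT. In CPM these were 16.7, 21.5 and 18.5 in pals-25(icb98), and 11, 12.25 and 10.6 in WT, with no overlap and a log2 difference of 0.75 (SE 0.13). Summed with c.1, c.2, d and p, it gave 16.7, 21.5 and 18.9 CPM in pals-25(icb98), against 27.3, 31.1 and 22.95 CPM in WT. The log2 ratio of means of this sum was -0.51, a far smaller difference than that of c.1, c.2 and d alone. p had 0.0, 0.0 and 16.6 counts in pals-25(icb98) and 14.2, 13.4 and 0.0 in WT.

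Of the 20 transcripts, 14 passed the filter on low counts, and c.1, c.2, d, h, j and l did not. Of the 14, 4 (a.1, a.2, g and m) passed through pals-25(icb98) alone and so had to differ. Of the other 10, b.2, e, f.2, n and o were higher with no overlap between groups, b.1 and i were lower with no overlap, and f.1, k and p overlapped. Over all transcripts tested, 18.6% were higher and 18.9% lower with no overlap, and nothing is read from the comparison because the contrast chose the gene. Without WT replicate 2, f.1 also lay below WT with no overlap, and the others stayed as they were. In 9 of the 20 transcripts every library had at least 100 counts: b.1, b.2, e, f.1, f.2, i, k, n and o.

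The change in lea-1 was spread over several transcripts. The largest single change of mean share was that of a.2, by 10.4 points. Among 5008 genes with at least 2 transcripts and at least 100 counts in every library, the median of the largest change was 3.31 points, and 83.3% of genes had a smaller one than lea-1. A share change of at least 20 points with no overlap was found in 113 of these genes (2.26%), and lea-1 was not one of them. With 10 points in place of 20, 420 genes met the rule, and lea-1 was one of them.

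Position was not used in the choice of lea-1, and the genes around it were tested. acl-2, an acyltransferase-like gene on the opposite strand, overlaps the end of the long lea-1 forms by 19 bases, and whether the reads were counted by strand is not given in the sources used here. It measured 18.1, 18.95 and 16.96 CPM in pals-25(icb98), against 23.4, 22.3 and 22.4 CPM in WT, a log2 difference of -0.33 (SE 0.07, edgeR adjusted p = 0.0275). The call was lost on leaving out any 1 library other than WT replicate 2 (edgeR adjusted p up to 0.105). yif-1, which encodes a homologue of a Golgi transport factor and is the farthest of the 7 genes examined, measured 51.2, 55.04 and 49.1 CPM in pals-25(icb98), against 61.7, 59.0 and 62.1 CPM in WT (log2 difference -0.23, SE 0.06, edgeR adjusted p = 0.0388). Its call was lost under the same omissions (edgeR adjusted p up to 0.136).

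The other neighbours were not called. uda-1, a nucleoside diphosphatase gene and the nearest on the left, had a log2 difference of 0.14 (SE 0.12, edgeR adjusted p = 0.436). K08H10.10, K08H10.5 and F57A8.1 had edgeR adjusted p of 0.308, 0.529 and 0.582, and T06E8.2 had 0.0 CPM in every library. None of the neighbours had an excess in pals-25(icb98) that passed the test. The annotation places 3 further noncoding RNAs (K08H10.14, K08H10.15 and K08H10.16) within lea-1, which were not analysed here.

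The gene totals most like that of lea-1 over the 6 libraries were found by Pearson's r of log2 CPM over the 10705 genes that averaged 5 CPM or more. The highest were tmd-2, a tropomodulin gene (r = 0.99), F59B1.2 (0.98), Y39B6A.1 (0.98), chk-1, a checkpoint kinase gene (0.97), and nspc-19, of a nematode-specific peptide family (0.97). F59B1.2 measured 234.7, 194.7 and 179.1 CPM in pals-25(icb98), and 166.4, 182.0 and 160.8 CPM in WT. Y39B6A.1 measured 1247, 927.2 and 770.4 CPM in pals-25(icb98), and 735.1, 742.2 and 680.4 CPM in WT. Like lea-1, both were highest in pals-25(icb98) replicate 1. The points share 2 groups and their library composition, and 116 genes (1.08%) had an r of at least 0.9. The first 4 lie on chromosome V, as did 26 of the 116 (22.4%) and 17.5% of all genes compared.

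Genes that act with or beside lea-1 in desiccation moved in both directions. The list of desiccation and trehalose genes has 22 members, and 21 were tested (hsp-12.6 was too low). Trehalose is the sugar that dauer larvae accumulate on drying. Of the 21, 4 rose and 5 fell, with a median log2 difference of -0.11, and the background was 9.8% of genes higher and 10.7% lower. Among trehalases, which split the sugar, tre-5 measured 9.74, 8.06 and 8.19 CPM in pals-25(icb98), against 3.41, 3.05 and 2.80 CPM in WT (log2 difference 1.49, SE 0.14, edgeR adjusted p = 0.00209), and tre-3 had 0.61 (SE 0.05, edgeR adjusted p = 0.000862). tre-1, another trehalase, fell by 0.31 on the log2 scale (edgeR adjusted p = 0.0177). On the synthesis side, tps-2 (trehalose 6-phosphate synthase) fell by 0.35 and gob-1 (trehalose 6-phosphate phosphatase) by 0.30 (SE 0.05 and 0.04, edgeR adjusted p = 0.0078 and 0.00753).

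Apart from dur-1, the other called members protect proteins or remove superoxide. sip-1, a small heat shock protein known from embryos, measured 231.3, 176.6 and 197.0 CPM in pals-25(icb98), against 82.6, 30.8 and 80.0 CPM in WT (log2 difference 1.64, SE 0.38, edgeR adjusted p = 0.0325). sod-4, an extracellular superoxide dismutase, rose by 0.46 (edgeR adjusted p = 0.0192), whereas sod-3, a mitochondrial one, fell by 0.82 (edgeR adjusted p = 0.0485). dur-1, named for its rise in dauer larvae, fell by 0.63 (edgeR adjusted p = 0.0238). With 1 library left out, tre-3, tre-5, tps-2 and gob-1 stayed called each time (edgeR adjusted p up to 0.0468), and tre-1, dur-1, sip-1, sod-3 and sod-4 each lost the call without any pals-25(icb98) library (up to 0.128). dur-1, sip-1, sod-3 and sod-4 also lost it without WT replicate 3, and sip-1, sod-3 and sod-4 without WT replicate 1. Without WT replicate 2 the list had 6 higher and 9 lower, but calls over all genes also grew, to 19.3% higher and 18.1% lower, which is the background for each list without this library.

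In the osmotic response list, 4 of 24 tested members (aqp-12 was too low) rose and 2 fell, with a median log2 difference of 0.16, beside 9.8% of all genes higher and 10.7% lower. ptr-23, a patched-related gene that acts with osm-8 in the epidermis, measured 182.8, 154.2 and 159.3 CPM in pals-25(icb98), against 68.8, 51.4 and 64.5 CPM in WT (log2 difference 1.43, SE 0.13, edgeR adjusted p = 0.0018). osm-8, a mucin-like gene whose loss activates osmotic genes, measured 9.67, 11.5 and 4.91 CPM in pals-25(icb98), against 23.2, 26.3 and 28.4 CPM in WT (log2 difference -1.58, SE 0.31, edgeR adjusted p = 0.021). osr-1, another epidermal osmotic regulator, fell by 1.17 on the log2 scale (SE 0.28, edgeR adjusted p = 0.0353). The inositol transporter gene hmit-1.3, the chloride channel gene clh-3 and the aquaporin gene aqp-4 rose by 0.54, 0.39 and 0.19 (edgeR adjusted p = 0.0162, 0.046 and 0.0346). ptr-23 alone stayed called with each library left out in turn (edgeR adjusted p up to 0.0126). osm-8 lost the call without pals-25(icb98) replicate 1, WT replicate 2 or WT replicate 3, and osr-1 on any omission but that of WT replicate 1. hmit-1.3 lost it without pals-25(icb98) replicate 1 or 2 or WT replicate 3, and aqp-4 and clh-3 on any omission but that of WT replicate 2 (edgeR adjusted p up to 0.152). Without WT replicate 2 the list had 7 higher and 1 lower.

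The insulin and dauer pathway, which controls entry into the dauer stage, had 2 of 24 members higher and 2 lower, a share near the background in each direction, with a median of 0.01. aap-1, the adaptor subunit of the PI3 kinase, rose by 0.27 (edgeR adjusted p = 0.0411). pdk-1, a kinase downstream of PI3 kinase, fell by 0.56, and daf-12, the nuclear receptor of dauer formation, by 0.38 (edgeR adjusted p = 0.0393 and 0.0237). aap-1, pdk-1 and daf-12 each lost the call without any 1 of the pals-25(icb98) libraries or WT replicate 3, and pdk-1 and aap-1 also without WT replicate 1 (edgeR adjusted p up to 0.139). Without WT replicate 2 the list had 7 higher and 3 lower.

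Since the lea-1 forms differ by exon use and by their ends, splicing factors were listed too. Of 48, 46 were matched and tested, 0 rose and 7 fell by edgeR's quasi-likelihood test, with a median log2 difference of -0.11, beside 9.8% of all genes higher and 10.7% lower. At an unadjusted p under 0.05, 0 were higher and 16 lower. The share of all genes at that unadjusted threshold is not given here, so the 16 have no background. DESeq2 called 0 higher and 10 lower, beside 14.2% of all genes higher and 15.4% lower. exc-7, an ELAV-like RNA-binding protein, measured 26.2, 29.03 and 24.7 CPM in pals-25(icb98), against 40.12, 37.8 and 38.8 CPM in WT (log2 difference -0.55, SE 0.07, edgeR adjusted p = 0.00687). asd-2, a STAR-family RNA-binding protein known from alternative splicing in muscle, had a log2 difference of -0.43 (SE 0.06, edgeR adjusted p = 0.00867). ptb-1, the polypyrimidine tract binding protein, and hrpr-1, an hnRNP R homologue, had log2 differences of -0.24 and -0.16 (edgeR adjusted p = 0.0193 and 0.0292). exc-7 and asd-2 stayed called with each library left out in turn (edgeR adjusted p up to 0.047), and ptb-1, hrpr-1, rsp-1, uaf-1 and prp-8 each lost the call without any 1 of the pals-25(icb98) libraries or WT replicate 3 (up to 0.1515). Without WT replicate 2 the list had 0 higher and 12 lower.

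Of 10 nonsense-mediated decay genes, which remove messages with early stops, 0 rose and 1 fell, a share close to the 10.7% of all genes that were lower. This was smgl-1, with a log2 difference of -0.19 (SE 0.05, edgeR adjusted p = 0.0458), whose call was lost on leaving out any 1 library other than WT replicate 2 (edgeR adjusted p up to 0.164). At an unadjusted p under 0.05, 0 were higher and 1 lower, again without a share over all genes. DESeq2 called 0 higher and 1 lower, beside 14.2% of all genes higher and 15.4% lower.

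**Figure D5:**
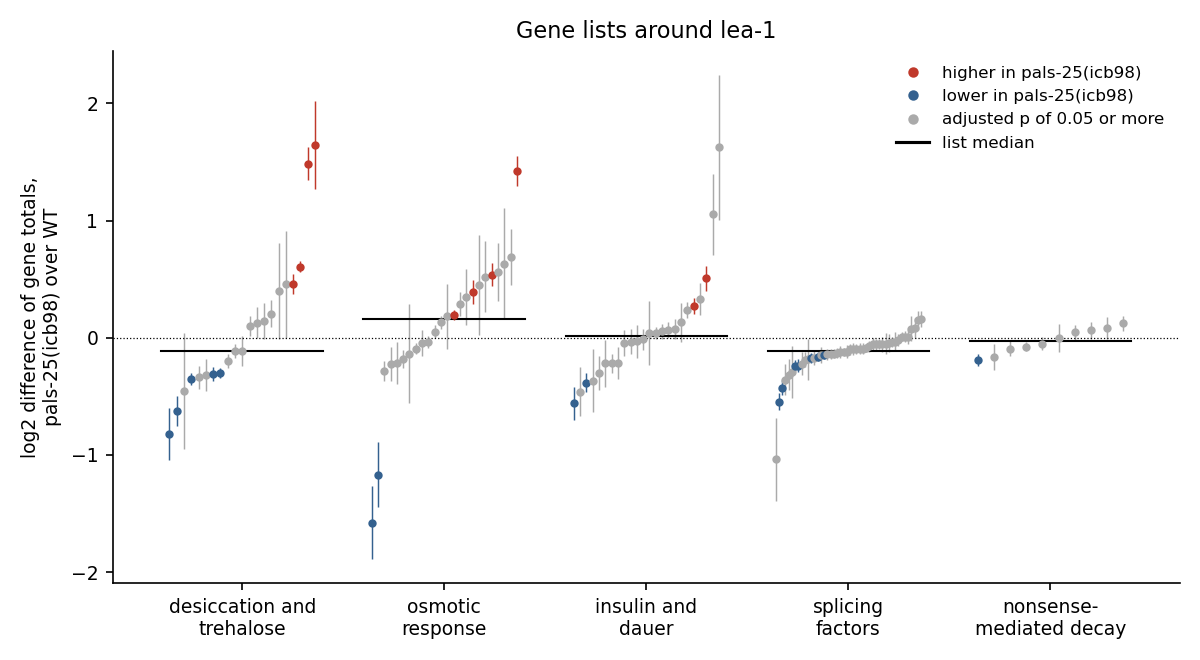
log2 differences of gene totals (pals-25(icb98) over WT, error bars SE) for the tested members of 5 gene lists, ordered within each list, with the list median as a black line. Red and blue points passed edgeR's adjusted p of 0.05. Splicing factors show 7 lower and 0 higher members.

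Summed markers of the adult stage, oocytes, sperm and intestine did not overlap between the groups, whereas those of the other tissues did. Adult stage markers (8 genes, the vitellogenins among them) summed to 14460, 12240 and 17120 CPM in pals-25(icb98), against 5158, 2681 and 5593 CPM in WT. The 8 oocyte markers summed to 1024, 893.6 and 1081 CPM in pals-25(icb98), against 632.8, 303.1 and 634.4 CPM in WT, and the 10 sperm markers to 695.1, 629.3 and 699.4 CPM in pals-25(icb98), against 581.0, 206.0 and 581.4 CPM in WT. All 3 sums were lowest in WT replicate 2, the library with the most i and k and the least b.2 and f.2. Epidermis markers summed to 3657 to 4013 CPM in pals-25(icb98) and 2963 to 3749 CPM in WT, and intestine markers to 7607 to 8659 CPM in pals-25(icb98) and 5776 to 6804 CPM in WT. Within the epidermis list 1 of 10 members was called higher (col-12, a collagen gene) and 4 lower (rol-6, bli-1, lin-26 and che-14), with a median log2 difference of -0.27, so its sum and its members differed in direction. Called higher were 6 of the 8 adult stage, 2 of the 8 oocyte and 0 of the 10 sperm markers, beside 9.8% of all genes, and 0 of them were called lower. Of 9 intestine markers measured, 2 were called higher and 1 lower, with a median log2 difference of 0.15. Epidermis, body wall muscle, pharynx, neuron and germline sums overlapped between the groups, and 0 of the markers measured were at 0 in every library. The part of stage and tissue in the lea-1 values and in the lists was not tested.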

How the data were processed

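Reads of 3 pals-25(icb98) and 3 WT libraries had been pseudoaligned by the authors with kallisto to the WS235 transcriptome, and the deposited estimated counts per transcript, not normalised, were the starting point; effective lengths from the same files served to compute TPM. Tool versions, strand setting and read layout were not found in the labels or methods read here. Members and gene lists were chosen with earlier results of these data known. Estimated counts were summed over transcripts per gene, rounded, filtered (filterByExpr, minimum count 10) and tested with edgeR 4.0.16 (TMM, robust quasi-likelihood F-test, Benjamini-Hochberg over all genes or transcripts, called at adjusted p under 0.05) in R 4.3.3; CPM uses TMM library sizes. DESeq2 1.42.0 was an alternative, with other scalings, no filter, a replicate block, TPM and each library left out in turn. The fit was tested on simulated data. Two-sided tests were used throughout.

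The text names every lea-1 transcript; in each list, with 1 exception, every called member, or the 4 of smallest adjusted p in each direction where more are called (sod-3, also called, was added after its values were seen); the gene overlapping lea-1 and the 3 nearest measured genes on each side; the 5 genes of highest r to the lea-1 total (log2 CPM, prior count 2); and 4 strain checks. Folds against a group at 0 use a floor of 3 counts over the group. Floors and folds cover counting error only. The exception is 1 called higher member of the insulin and dauer list, which is not reported here.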

Additional observations from a re-analysis of the deposited data

How the results depend on the processing

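Depth was ample for lea-1 (11551 to 15988 counts), but the division of reads among overlapping transcripts limits each transcript value, and 3 libraries a group limit the spread. Of 164 single-transcript share alternatives, 159 moved by less than 1 SD, 5 moved by more and 0 changed sign. Many of the 159 could not move. A replicate block leaves a difference of mean shares as it is. Leaving out a WT library does so for a.1, a.2, g and m, and leaving out a pals-25(icb98) library for c.1, c.2 and d, because those groups are at 0. In TPM the total differed by 0.35 on the log2 scale, the short share by 20.96 points and that of c.1, c.2 and d by -9.26 points. A change of 10 points in place of 20 was met by 420 genes, lea-1 among them.

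Whether replicate numbers pair the libraries was not settled. Deviations of same-numbered libraries correlated at 0.078, 0.247 and 0.129, and those of other-numbered ones at -0.236 to 0.149. Replicates 1 and 2 of pals-25(icb98) each correlated best with the WT library of their own number. Replicate 3 of pals-25(icb98) correlated better with WT replicate 1 (0.149). With the number as a replicate block, 1184 genes were higher and 1010 lower, against 1584 and 1729 without it, and 152 transcripts were higher and 24 lower. Beside these fewer calls over all genes, 2 osmotic genes were higher. In the lower direction were 0 insulin and dauer genes, 2 splicing factors and 0 decay genes. The lea-1 total then differed by 0.22.

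DESeq2 called 2288 transcripts higher and 2449 lower, and 4 insulin and dauer genes higher, beside 14.2% of all genes higher. Without the filter 1 insulin and dauer gene was higher and 0 decay genes lower, beside 1479 genes higher and 1533 lower in all. With RLE size factors 0 decay genes were lower, beside 1546 genes lower in all. The cause was not tested.

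With 1 library left out, called genes ranged from 682 to 3165 (higher) and 330 to 2972 (lower), and called transcripts from 221 to 1523 and 24 to 1013, each highest without WT replicate 2 and lowest without pals-25(icb98) replicate 1. The ranges were 2 to 6 higher and 2 to 9 lower for desiccation, 1 to 7 and 0 to 2 for osmotic genes, 0 to 7 and 0 to 3 for insulin and dauer genes, 2 to 12 lower for splicing factors and 0 to 1 lower for decay genes. The short share differed by 10.8 to 18.2 points, c.1, c.2 and d by -5.96 to -5.02 points, and the total by 0.14 to 0.30. Genes with a share change of 20 points numbered 159 to 220, the highest without WT replicate 1 (190 without pals-25(icb98) replicate 2). With all libraries they numbered 113, and smaller groups overlap less readily. Chosen after seeing the data, leaving out WT replicate 2 gave 35 transcripts silent in WT and on in pals-25(icb98). The number was 16 with all libraries, and such an omission cannot lower it.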
